A study of Mus musculus with 12 samples.

Results

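The MYC, MAX and MXD network is a set of related transcription factors, and it was followed here through the transcripts of 10 mouse genes. They were the rows of the deposited gene count table with the symbols Myc, Mycn, Mycl, Max, Mlx, Mxd1, Mxd3, Mxd4, Mxi1 and Mnt, 10 of the 34513 genes in the table. RNA-seq had been made from cultures of 3 mouse cell lines, non-tumorigenic Melan-A melanocytes and the B16F0 and B16F10 melanoma lines, of which B16F10 is the more metastatic. Each line was sequenced with no treatment and with SX-682, a small-molecule inhibitor of the chemokine receptors CXCR1 and CXCR2. Each of the 6 groups (untreated and SX-682 in each line) held 2 libraries, 12 in all. The labels give no allele, dose or time for these cultures, and they do not say that the 2 libraries of a group came from separate cultures, so each p-value measures only the spread between these libraries.

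MYC, MYCN and MYCL are activating factors that bind DNA only as partners of MAX, at the E-box sequence CACGTG, and they raise genes for ribosome assembly, metabolism and the cell cycle. MXD1, MXD3, MXD4, MXI1 and MNT compete for MAX, sit on the same sequence and bring in corepressors with histone deacetylases. MLX is a MAX-like partner that some MXD proteins, MNT and the glucose-responsive factors MLXIP and MLXIPL use in place of MAX. MYC is known in melanoma as a driver of growth that opposes senescence, and MXD proteins are known for their rise as cells leave division and differentiate.

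SX-682 moved the network in different directions in the 3 lines. On the log2 scale Myc transcript rose by 0.59 in Melan-A and fell by 0.48 in B16F10, with a small fall of 0.11 in B16F0 whose call did not hold under every setting. Max, the shared partner, fell in both B16 lines and not measurably in Melan-A. The antagonists Mxd1 and Mxi1 rose in Melan-A and in B16F10, Mnt rose in Melan-A, and Mxd3 was the single member called lower in all 3 lines. The few counts of Mycn were also lower with SX-682 in each line, with a call in B16F10 alone. Before treatment, the ratio of summed antagonist to summed MYC transcript, per kb of exon, was 2.46 ± 0.085 in Melan-A, with 1.52 ± 0.046 in B16F0 and 0.963 ± 0.0056 in B16F10 (SD, n = 2 each).

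On GRCm38, in the coordinates of the deposited table, the MYC genes are Myc (ENSMUSG00000022346.15) at chr15:61985391-61990374, Mycn (ENSMUSG00000037169.15) at chr12:12936093-12941914 and Mycl (ENSMUSG00000028654.13) at chr4:122995652-123002485. The shared partners are Max (ENSMUSG00000059436.13) at chr12:76937269-76962201 and Mlx (ENSMUSG00000017801.15) at chr11:101087277-101092207. The MXD genes are Mxd1 (ENSMUSG00000001156.9) at chr6:86647042-86669161, Mxd3 (ENSMUSG00000021485.14) at chr13:55325168-55329823, Mxd4 (ENSMUSG00000037235.13) at chr5:34173883-34187720 and Mxi1 (ENSMUSG00000025025.14) at chr19:53310518-53375810, and the remaining antagonist is Mnt (ENSMUSG00000000282.12) at chr11:74830920-74845725. Each is a protein-coding gene, and its length in the table equals its summed exonic bases in GENCODE M21.

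Promoter windows from RefSeq on GRCm38.p6, each running from 250 bases before to 50 after a start site, were found for 9 of the 10 genes, in 11 windows. Myc had no entry. The E-box CACGTG, which reads the same on both strands, was in the windows of 4 of these 9 genes, Max, Mxd4, Mnt and Mlx, and in 8.09% of the 27025 genes with a window (7.15% of all 32851 windows). Its first base lay 3 bases before the start site in Max, 40 in Mlx, 123 in Mnt and 219 in Mxd4. No copy was in the windows of Mycn, Mycl, Mxd1, Mxd3 or in the 3 windows of Mxi1, which says only that these letters are not there. The 4 windows are shown because they carry the sequence the network's own proteins bind, with the motif in capitals.
Max, chr12:76962199-76962498, minus strand: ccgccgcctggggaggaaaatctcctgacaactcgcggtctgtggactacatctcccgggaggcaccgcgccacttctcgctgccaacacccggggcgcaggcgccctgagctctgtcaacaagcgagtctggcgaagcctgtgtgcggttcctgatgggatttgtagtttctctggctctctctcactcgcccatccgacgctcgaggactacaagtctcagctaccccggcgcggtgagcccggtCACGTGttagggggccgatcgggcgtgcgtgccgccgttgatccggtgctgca
Mlx, chr11:101087040-101087339, plus strand: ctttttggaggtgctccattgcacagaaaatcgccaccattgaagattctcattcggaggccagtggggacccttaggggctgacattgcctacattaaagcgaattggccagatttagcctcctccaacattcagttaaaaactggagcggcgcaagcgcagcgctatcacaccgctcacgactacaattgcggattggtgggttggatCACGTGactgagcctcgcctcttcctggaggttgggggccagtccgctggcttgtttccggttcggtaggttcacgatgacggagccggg
Mnt, chr11:74830674-74830973, plus strand: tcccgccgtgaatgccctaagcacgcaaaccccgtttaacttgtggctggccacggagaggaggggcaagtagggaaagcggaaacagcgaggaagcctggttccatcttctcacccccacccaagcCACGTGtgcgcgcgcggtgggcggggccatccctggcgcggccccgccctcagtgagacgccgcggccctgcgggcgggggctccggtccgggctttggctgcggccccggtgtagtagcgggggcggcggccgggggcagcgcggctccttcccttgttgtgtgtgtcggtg
Mxd4, chr5:34187661-34187960, minus strand: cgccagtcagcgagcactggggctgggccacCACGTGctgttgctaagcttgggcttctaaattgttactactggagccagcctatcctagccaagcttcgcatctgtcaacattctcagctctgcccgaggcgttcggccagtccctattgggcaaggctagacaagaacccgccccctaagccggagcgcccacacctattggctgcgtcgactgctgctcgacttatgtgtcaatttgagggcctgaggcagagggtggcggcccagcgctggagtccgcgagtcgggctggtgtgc
These matches are a description of sequence, and binding was not measured. The 4 genes did not share a direction with SX-682: in B16F10 Max, Mlx and Mnt fell and Mxd4 rose.

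Read counts per gene gave library totals of 48876982 to 85322092, so 3 counts in a library, the floor used here, were 0.033 to 0.062 CPM, the read count scaled to library size by TMM. No molecular identifiers are described. The floor reflects the counting of reads alone, and libraries of a group differed by more than sampling noise (chi-square per gene 2.86 to 5.29). A CPM value is a share of the RNA in a library, so a change in the RNA per cell or in the cells that contribute cannot be told apart from it. The 12 libraries were fitted together by edgeR's quasi-likelihood test in 18338 genes that passed its expression filter. All 10 members passed the filter, and a change was called at a Benjamini-Hochberg adjusted p under 0.05 over those genes. The biological coefficient of variation was 2.78%, so small differences passed. An exact permutation of 2 libraries against 2 cannot give a 2-sided p under 0.333, and the tests therefore rest on the spread shared over groups and genes. Of 10 melanocyte lineage markers, 9 or 10 lay over the floor in every group, and their summed level was 1355 to 1385 CPM in the 4 Melan-A libraries and 15415 to 25455 CPM in the 8 B16 libraries. Gpr143, which encodes a melanosomal receptor, was at 0 in both Melan-A libraries with SX-682. The number of markers over the floor in Melan-A was 9 both untreated and with SX-682. All 6 fibroblast markers were over the floor in Melan-A, with a summed 93.5 to 115 CPM against 8.43 to 16.8 CPM in the B16 lines, and the summed markers of keratinocytes, leukocytes and endothelium reached 6.02, 9.20 and 2.43 CPM at most. The summed melanocyte markers also moved with SX-682 in the B16 lines. They went from 25455 and 25422 to 15415 and 15666 CPM in B16F10, and from 19679 and 19582 to 16695 and 16488 CPM in B16F0. These levels move with the line and in part with the drug, and their part in the differences between lines and with SX-682 was not tested. Cxcr2, a target of the drug, had 79 and 76 counts in untreated and 34 and 47 in treated Melan-A, and at most 1 count in any B16 library. Cxcr1 had 21 and 13 counts in untreated and 2 and 3 in treated Melan-A, and at most 5 in any B16 library. The paper that reported these data gives the other order for Cxcr2. It reports more in both B16 lines than in Melan-A, for mRNA from a public database and for surface protein by flow cytometry.

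The untreated level of the MYC genes differed between the lines, which addresses how the melanoma lines and the melanocyte line stand before the drug. Myc was at 60.1 and 62.3 CPM in untreated Melan-A, at 76.7 and 75.4 CPM in B16F0 and at 104 and 102 CPM in B16F10. The libraries of the 3 lines did not overlap, and the order from Melan-A over B16F0 to B16F10 held at each step. The log2 differences were 0.31 for B16F0 over Melan-A (standard error 0.037, adjusted p = 7.29e-09), 0.76 for B16F10 over Melan-A (0.036, 1.16e-17) and 0.44 for B16F10 over B16F0 (0.036, 6.82e-12). Myc made up at least 97.9% of the summed CPM per kb of the 3 MYC genes in every library. Mycl, known from lung cancer and dendritic cells, ran in the opposite order, with 118 and 157 counts in Melan-A, 31 and 20 in B16F0 and 8 and 4 in B16F10. It was 4.32-fold lower in B16F0 than in Melan-A (adjusted p = 6.32e-06) and 3.65-fold lower again in B16F10 than in B16F0 (adjusted p = 0.00308), a step that was not called without the second untreated B16F10 library (adjusted p = 0.0580). Mycn, the neural-crest and neuroblastoma paralog, had 22 and 16 counts in Melan-A, 1 and 3 in B16F0 and 24 and 20 in B16F10. On summed scaled counts Melan-A held 7.62 times the level of B16F0 (exact 95% counting interval 2.74 to 29.4) and B16F10 12.6 times (4.58 to 48.2). These intervals leave out the spread between libraries beyond counting. Both differences from B16F0 were called (adjusted p = 0.00454 and 0.000613), the first not without the first untreated B16F0 library (adjusted p = 0.0773). Melan-A and B16F10 did not differ in Mycn at this depth (log2 difference 0.72, 95% interval -0.58 to 2.01).

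The partners Max and Mlx were both lower in Melan-A than in the melanoma lines and at one level in the latter. Max, which every MYC protein needs, was at 55.3 and 54.9 CPM in Melan-A, 63.1 and 63.9 in B16F0 and 59.7 and 64.7 in B16F10. The B16 libraries all lay above the Melan-A libraries, by 0.20 (B16F0, adjusted p = 7.92e-05) and 0.17 (B16F10, adjusted p = 0.000593) on the log2 scale. The B16 lines overlapped (log2 difference -0.03, 95% interval -0.12 to 0.06). Mlx was at 28.6 and 29.4 CPM in Melan-A, 39.4 and 41.6 in B16F0 and 40.3 and 39.6 in B16F10. It was 1.40-fold higher in B16F0 and 1.38-fold higher in B16F10 than in Melan-A (adjusted p = 8.31e-10 and 2.52e-09), and the B16 lines again overlapped (log2 difference -0.02, 95% interval -0.12 to 0.09). Of the exonic bases of Mlx, 19.3% are shared with Psmc3ip on the opposite strand, and the strand setting of the counting is not given in the sources used here.

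All antagonists except Mxi1 were highest in untreated Melan-A. Mnt, the most broadly expressed MAX-binding repressor, was at 90.6 and 89.8 CPM in Melan-A, 47.4 and 48.5 in B16F0 and 47.9 and 48.6 in B16F10. It was therefore lower in both melanoma lines, 1.88-fold in B16F0 and 1.87-fold in B16F10 (adjusted p = 2.22e-19 and 4.34e-19), with no difference between them beyond their spread. Mxd3, the MXD member tied to S phase, was at 43.3 and 41.6 CPM in Melan-A, 35.7 and 36.5 in B16F0 and 21.2 and 19.3 in B16F10. Its level was lower along the line order in which that of Myc was higher, and B16F10 was 2.10-fold below Melan-A (adjusted p = 5.49e-17) and 1.78-fold below B16F0 (adjusted p = 6.46e-14). Mxd1, the MXD protein of terminal differentiation, was at 19.4 and 19.8 CPM in Melan-A, 11.4 and 10.2 in B16F0 and 16.3 and 16.2 in B16F10. Its 3 lines were separate, with B16F0 1.81-fold below Melan-A (adjusted p = 3.57e-12) and B16F10 1.21-fold below it (adjusted p = 0.000753). Mxd4, another repressive MAX partner, followed the order of Mxd1, with 89.6 and 90.9 CPM in Melan-A, 64.9 and 66.3 in B16F0 and 80.7 and 81.6 in B16F10. It was 1.38-fold lower in B16F0 (adjusted p = 1.62e-13) and 1.11-fold lower in B16F10 (adjusted p = 0.000126) than in Melan-A. Mxi1, also called Mxd2, which encodes a further repressive MAX partner, was highest in B16F0, at 50.9 and 54.2 CPM, against 39.2 and 39.4 in Melan-A and 40.2 and 40.4 in B16F10. Melan-A and B16F10 did not pass the test for Mxi1 (log2 difference 0.04, 95% interval -0.05 to 0.13).

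All 10 members differed between untreated B16F0 and Melan-A, 4 higher and 6 lower in B16F0, where 75.9% of all genes tested were called (35.3% higher and 40.6% lower). Between untreated B16F10 and Melan-A 8 differed, 3 higher and 5 lower, against 74.2% of all genes (33.4% higher, 40.8% lower). Between the B16 lines 7 differed, 4 higher and 3 lower in B16F10, against 62.0% (30.8% higher, 31.2% lower). The median absolute log2 difference of the members was 0.47, 0.59 and 0.41 in these comparisons, and that of all genes tested 0.71, 0.68 and 0.46. The comparisons share the untreated libraries of each line.

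**Figure D1:**
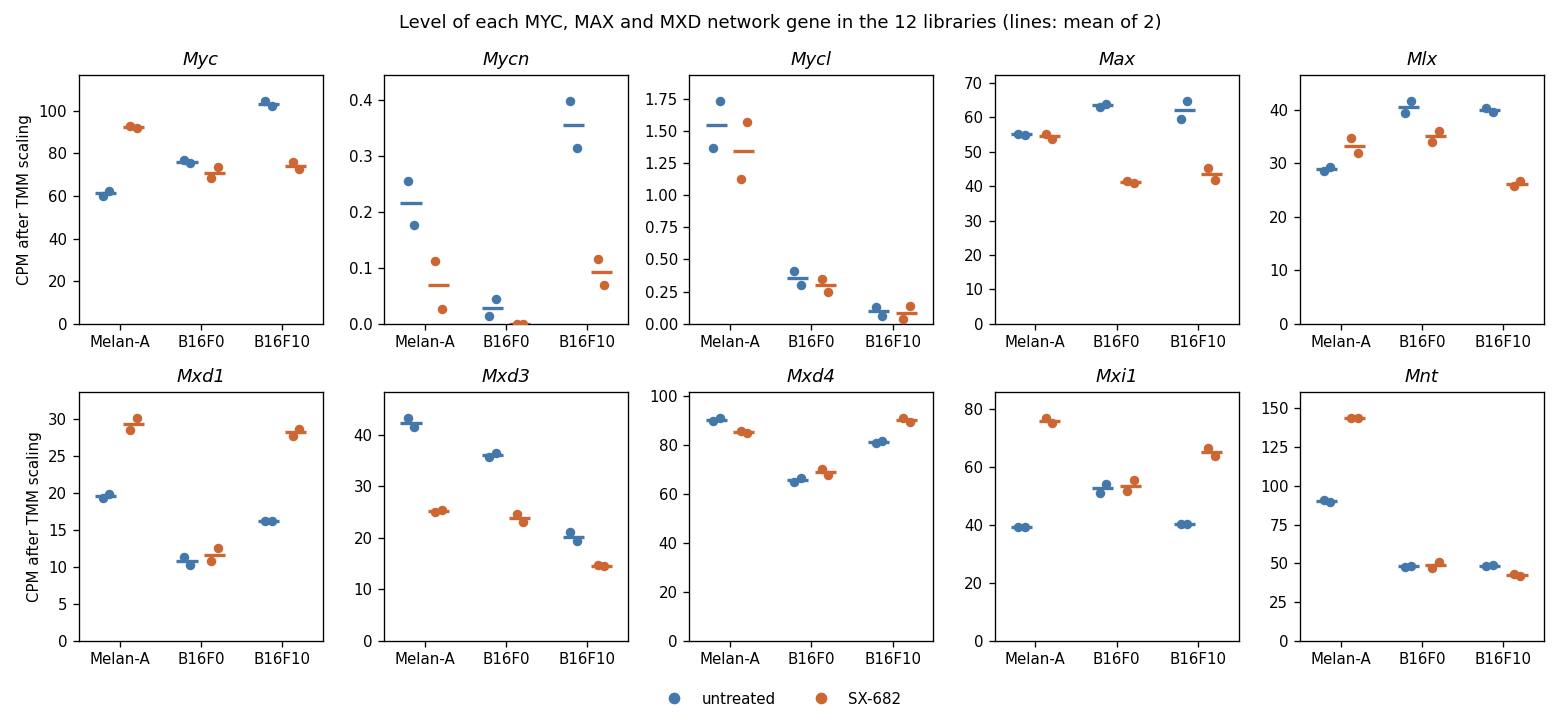
Level of the 10 network genes in CPM after TMM scaling, with 1 point per library, a bar at the mean of 2, and untreated beside SX-682 libraries in each line (y axes start at 0 and differ between genes). Myc rises with SX-682 in Melan-A from 61.2 to 92.4 CPM and falls in B16F10 from 103 to 74.1 CPM, and Mycn and Mycl stay under 2 CPM in every library.

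With SX-682, Myc transcript rose in Melan-A and fell in B16F10. In Melan-A it was at 60.1 and 62.3 CPM untreated and at 92.8 and 92.0 CPM with SX-682, in B16F0 at 76.7 and 75.4 CPM and then 68.2 and 73.4 CPM, and in B16F10 at 104 and 102 CPM and then 75.7 and 72.5 CPM. Both treated libraries lay above the untreated ones in Melan-A and below them in the B16 lines, and the untreated order of the lines was not kept: treated Melan-A was highest. The log2 fold changes, each with its standard error, were 0.59 ± 0.036 in Melan-A (adjusted p = 2.06e-14), -0.11 ± 0.038 in B16F0 (adjusted p = 0.0201) and -0.48 ± 0.037 in B16F10 (adjusted p = 2.69e-12). The fall in B16F0 was not called with DESeq2 (adjusted p = 0.0863), with RLE or upper quartile scaling (0.0521 and 0.0646), without the first untreated B16F0 library (0.124) or without the first treated one (-0.05 on the log2 scale, adjusted p = 0.401). The change differed among the lines (adjusted p = 7.50e-16 in edgeR's quasi-likelihood test of line by treatment), by 1.07 on the log2 scale between Melan-A and B16F10. By RT-PCR, the paper reports Myc as significantly decreased with SX-682 in both B16F0 and B16F10. Mycn fell from 24 and 20 counts to 7 and 4 in B16F10 (log2 fold change -1.92, standard error 0.73, adjusted p = 0.0293), a call that DESeq2 did not make (adjusted p = 0.0802) and that was lost when any 1 of the 4 B16F10 libraries was left out (adjusted p = 0.0711 to 0.188). In Melan-A Mycn went from 22 and 16 counts to 8 and 2 (adjusted p = 0.0775), and in B16F0 from 1 and 3 to 0 and 0, both at or under the floor. Mycl went from 118 and 157 counts to 80 and 118 in Melan-A, from 31 and 20 to 23 and 12 in B16F0 and from 8 and 4 to 2 and 8 in B16F10, with overlapping libraries and no call in any line.

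Max transcript was lower with SX-682 in the melanoma lines. It went from 63.1 and 63.9 CPM to 41.4 and 40.9 CPM in B16F0 and from 59.7 and 64.7 to 45.4 and 41.8 in B16F10, with no overlap in either line. In Melan-A it was at 55.3 and 54.9 CPM untreated and 55.2 and 53.8 CPM treated, which overlap. The log2 fold changes were -0.62 in B16F0 (standard error 0.045, adjusted p = 8.34e-13), -0.51 in B16F10 (0.045, adjusted p = 4.72e-11) and -0.02 in Melan-A (95% interval -0.10 to 0.07, adjusted p = 0.798). The response of each B16 line differed from that of Melan-A (adjusted p = 3.71e-09 for B16F0 and 1.53e-07 for B16F10), whereas the B16 lines did not pass the test against each other (difference 0.11, 95% interval -0.02 to 0.24). Mlx rose from 28.6 and 29.4 CPM to 34.7 and 31.9 CPM in Melan-A and fell from 39.4 and 41.6 to 33.9 and 36.1 in B16F0 and from 40.3 and 39.6 to 25.7 and 26.6 in B16F10. Its log2 fold changes were 0.20 (adjusted p = 0.00162), -0.21 (adjusted p = 0.00101) and -0.61 (adjusted p = 4.52e-11), and the lines differed (adjusted p = 1.27e-09). The rise in Melan-A was not called without the first treated Melan-A library (adjusted p = 0.0563).

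The antagonists did not respond as a group. Mxi1 went from 39.2 and 39.4 CPM to 76.8 and 75.0 CPM in Melan-A, from 50.9 and 54.2 to 51.5 and 55.4 in B16F0, and from 40.2 and 40.4 to 66.6 and 63.8 in B16F10. It rose 1.93-fold in Melan-A (adjusted p = 1.07e-17) and 1.62-fold in B16F10 (adjusted p = 2.99e-14), and its B16F0 libraries overlapped (log2 fold change 0.02, 95% interval -0.07 to 0.11). Mxd1 had the same split, from 19.4 and 19.8 CPM to 28.5 and 30.1 in Melan-A, from 11.4 and 10.2 to 10.8 and 12.5 in B16F0 and from 16.3 and 16.2 to 27.8 and 28.7 in B16F10. The log2 fold changes of Mxd1 were 0.58 (standard error 0.064), 0.10 (95% interval -0.06 to 0.26) and 0.80 (0.068). Its rises in Melan-A and B16F10 were called (adjusted p = 5.27e-09 and 2.51e-11). For both genes the B16F0 response differed from that of Melan-A (adjusted p = 2.70e-13 for Mxi1 and 0.000282 for Mxd1) and from that of B16F10 (adjusted p = 8.09e-10 and 3.75e-06). The rise of Mxi1 was also smaller in B16F10 than in Melan-A (difference -0.26, adjusted p = 0.00118). For Mxd1 B16F10 and Melan-A did not pass that test (adjusted p = 0.0768).

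Mnt rose in Melan-A and in neither B16 line. It went from 90.6 and 89.8 CPM to 144 and 144 CPM in Melan-A, a 1.59-fold rise (adjusted p = 5.93e-16), from 47.4 and 48.5 to 46.6 and 50.9 in B16F0, and from 47.9 and 48.6 to 43.2 and 41.8 in B16F10. The fall in B16F10 was small (log2 fold change -0.18, standard error 0.041, adjusted p = 0.000413), the B16F0 libraries overlapped (0.02, 95% interval -0.06 to 0.10), and the lines differed (adjusted p = 1.13e-13). Mxd3 went from 43.3 and 41.6 CPM to 25.1 and 25.4 in Melan-A, from 35.7 and 36.5 to 24.7 and 23.1 in B16F0 and from 21.2 and 19.3 to 14.7 and 14.5 in B16F10. Every treated library lay below the untreated ones of its line, and the log2 fold changes of -0.75, -0.59 and -0.47 (standard errors 0.053, 0.055 and 0.062) were all called. The fall was larger in Melan-A than in B16F10 (difference 0.28, adjusted p = 0.00864), a call that was lost without the second untreated B16F10 library (adjusted p = 0.111) or the first treated one (adjusted p = 0.0513). Of the exonic bases of Mxd3, 4.43% are shared with Prelid1 on the opposite strand. Mxd4 was at 89.6 and 90.9 CPM and then 85.8 and 84.7 in Melan-A, at 64.9 and 66.3 and then 70.2 and 67.8 in B16F0, and at 80.7 and 81.6 and then 90.8 and 89.5 in B16F10. The treated libraries lay below the untreated ones in Melan-A and above them in the B16 lines, by small amounts, with a called rise of 0.15 on the log2 scale in B16F10 (adjusted p = 0.000286). In Melan-A the log2 fold change of -0.08 (adjusted p = 0.0353) was not called with DESeq2, RLE or upper quartile scaling, with no filter or when any 1 of the 12 libraries was left out (adjusted p up to 0.263). In B16F0 it was 0.07 (adjusted p = 0.0728), and 5 settings, among them DESeq2 (adjusted p = 0.0464), called it.

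**Figure D2:**
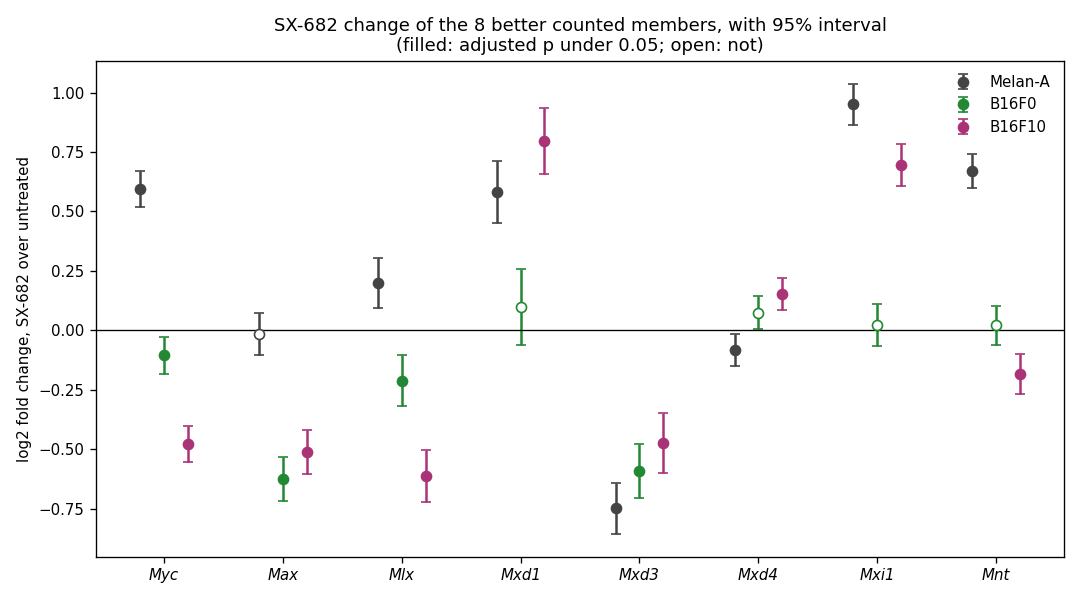
Log2 fold change of SX-682 over untreated with its 95% interval for the 8 members other than Mycn and Mycl, by line (x axis: gene; filled points: adjusted p under 0.05). Myc stands at 0.59 in Melan-A and -0.48 in B16F10, Max at -0.62 and -0.51 in the B16 lines, Mxd3 lies below 0 in all 3 lines, and the B16F0 points of Mxd1, Mxi1 and Mnt are open and near 0.

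In counts, SX-682 changed 7 of the 10 members in Melan-A, 5 higher (Myc, Mxd1, Mxi1, Mnt and Mlx) and 2 lower (Mxd3 and Mxd4), where 48.2% of all genes tested were called (23.4% higher, 24.7% lower). It changed 4 in B16F0, 0 higher and 4 lower (Myc, Max, Mxd3 and Mlx), against 50.1% of all genes (25.1% higher, 25.0% lower). In B16F10 it changed 9, 3 higher (Mxd1, Mxd4 and Mxi1) and 6 lower (Myc, Mycn, Max, Mxd3, Mnt and Mlx), against 50.8% (25.5% higher, 25.3% lower). Mycl was not called in any line. The median absolute log2 fold change of the members was 0.59 for Melan-A, 0.16 for B16F0 and 0.50 for B16F10, and that of all genes 0.31, 0.32 and 0.36. The B16F0 median includes the fitted value of Mycn, which was at or under the floor there in both groups. The response differed among the 3 lines for 8 members, all but the thinly counted Mycn and Mycl, against 47.4% of all genes. Mxd3 was no longer among them without any 1 of 5 libraries, 3 of Melan-A and 2 of B16F10 (adjusted p = 0.0536 to 0.118). Pair by pair, 7 differed between B16F0 and Melan-A (34.4% of all genes), 7 between B16F10 and Melan-A (33.8%) and 5 between B16F10 and B16F0 (30.3%). Without 1 library, Mxd4 dropped out of the first (adjusted p = 0.0622 to 0.0831 for 3 libraries) and Mnt out of the last (adjusted p = 0.0623 without the second treated B16F0 library). Called in the same direction in all 3 lines were 0 members raised and 1 lowered, while of all 18338 genes 2072 were raised and 2150 lowered. The share of mitochondrial reads was 0.756% to 1.24% over the libraries and was higher with SX-682 in every line, and its part in these results was not tested.

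Levels of different genes were set side by side only per kb of exon, with the summed exonic bases of each gene in GENCODE M21 as its length. The 3 MYC genes together were at 23.0 ± 0.61 CPM per kb in untreated Melan-A, 28.1 ± 0.35 in B16F0 and 38.2 ± 0.55 in B16F10 (SD, n = 2). With SX-682 they were at 34.4 ± 0.15, 26.1 ± 1.3 and 27.3 ± 0.81 CPM per kb. The 5 antagonists together were before treatment at 56.6 ± 0.46 in Melan-A, against 42.6 ± 0.75 in B16F0 and 36.7 ± 0.32 in B16F10, and at 67.0, 38.3 ± 0.55 and 39.5 ± 0.57 after it. Both sums were therefore higher with SX-682 in Melan-A. Without Mnt, the antagonist sum in Melan-A was not higher, at 37.3 and 36.8 CPM per kb untreated and 36.0 and 36.0 with SX-682. In B16F10 the MYC sum was lower and the antagonist sum higher.

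The ratio of antagonists to MYC genes was 2.52 and 2.40 in the untreated Melan-A libraries and 1.94 and 1.96 with SX-682. In B16F0 it was 1.48 and 1.55, then 1.50 and 1.43. In B16F10 it was 0.959 and 0.967, then 1.43 and 1.46. The treated libraries lay below the untreated ones in Melan-A, overlapped them in B16F0 and lay above them in B16F10, where the ratio reached the level of B16F0. With 2 libraries a group this is given without a test. Max alone was at 0.192 to 0.194 of the summed MYC and antagonist level in untreated Melan-A and at 0.148 to 0.151 with SX-682, and at 0.220 to 0.251 in the untreated and 0.173 to 0.186 in the treated B16 libraries. With this length, Max was thus lower against these summed genes with SX-682 in each line. In Melan-A Max itself did not change measurably (log2 fold change -0.02), while Myc, Mxd1, Mxi1 and Mnt rose. The size of the fraction depends on the length used, as Max has 3598 exonic bases and 1942 in its longest transcript. It was not recomputed with the longest transcripts.

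**Figure D3:**
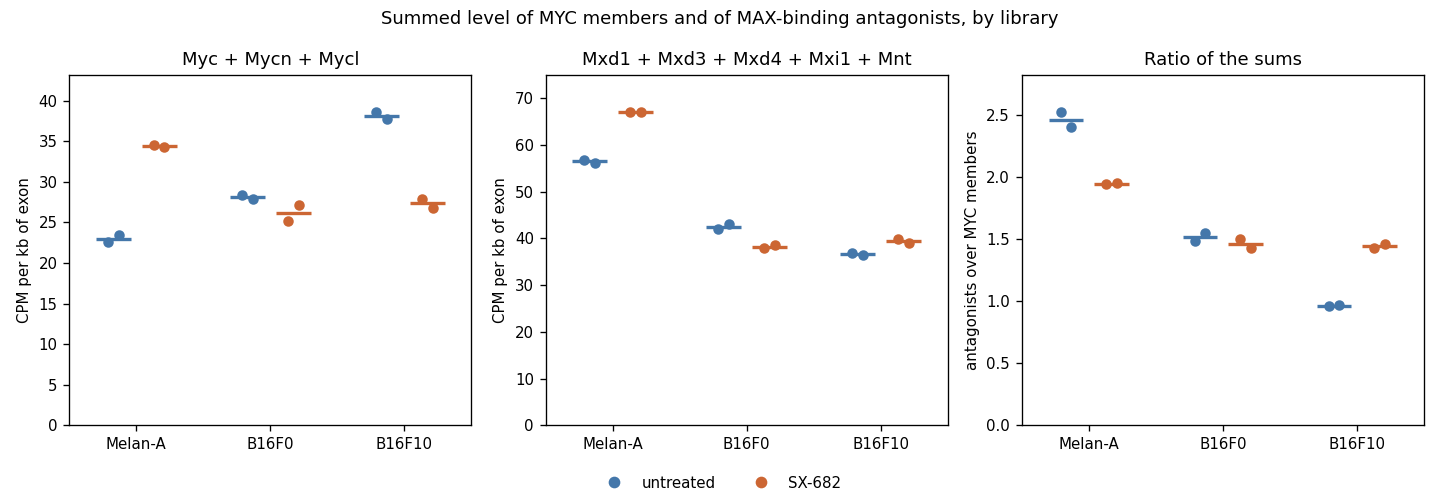
Summed transcript level of Myc, Mycn and Mycl (left), of Mxd1, Mxd3, Mxd4, Mxi1 and Mnt (middle), both in CPM per kb of exon, and their ratio (right), with 1 point per library and a bar at the mean of 2. The mean ratio is 2.46 untreated and 1.95 with SX-682 in Melan-A, the B16F0 libraries lie between 1.43 and 1.55, and the mean in B16F10 is 0.963 untreated and 1.45 with SX-682.

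The makeup of the antagonist pool differed as well, given here without a test. The order of the antagonists depends on the length used for each gene, here all exonic bases. In untreated Melan-A, Mnt held 34.5 ± 0.057% and Mxd3 31.7 ± 0.64% of the summed antagonist level, and with SX-682 Mnt held 46.3 ± 0.014% and Mxd3 15.9 ± 0.16%. Mxi1 went from 10.2 ± 0.12% to 16.6 ± 0.28% there. In B16F0, Mxd3 held 35.8 ± 0.069% and then 26.4 ± 1.6%, next to Mnt at 27.5 ± 1.3%. In B16F10, Mnt held 28.4 ± 0.57% before and 23.3 ± 0.20% after treatment and Mxd4 26.0 ± 0.44% and 26.9 ± 0.11%, with Mxi1 going from 16.1 ± 0.21% to 24.2 ± 0.38% and Mxd1 from 6.25 ± 0.050% to 10.1 ± 0.37%. The share of Mxd3 was lower with SX-682 in all 3 lines. With the longest transcript as the length, Mxd3 (32.3 ± 0.69%) stood above Mnt (26.0 ± 0.012%) in untreated Melan-A, and Mxd4 stood first in B16F10 both untreated (34.3 ± 0.58%) and treated (34.7 ± 0.10%). The share of Mxd3 was lower with SX-682 in each line with that length too, at 16.9 ± 0.17% in treated Melan-A, and 26.2 ± 1.4% against 35.7 ± 0.051% in B16F0 and 14.9 ± 0.067% against 22.7 ± 1.2% in B16F10.

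**Figure D4:**
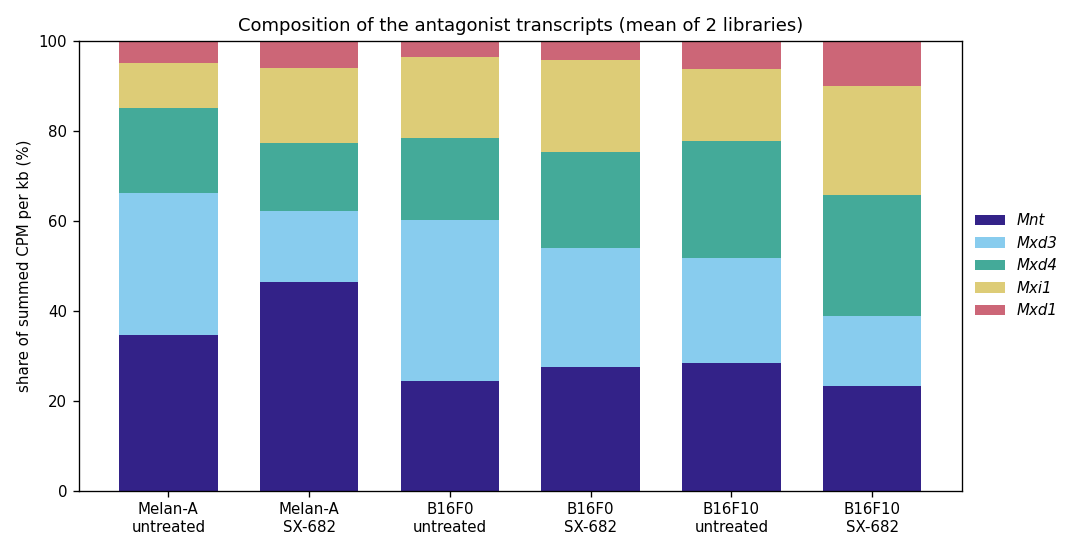
Share of each antagonist in the summed CPM per kb of Mnt, Mxd3, Mxd4, Mxi1 and Mxd1, with all exonic bases as length and as the mean of 2 libraries in each of the 6 groups (stacked bars, in percent). The Mxd3 segment is smaller with SX-682 in every line (31.7% and 15.9% in Melan-A), Mnt reaches 46.3% in treated Melan-A and Mxi1 24.2% in treated B16F10.

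Other genes of the pathway were followed in fixed lists. Mga, which encodes a MAX-binding repressor of germline genes, rose in B16F0 (log2 fold change 0.29, adjusted p = 3.47e-06) and fell in B16F10 (-0.26, adjusted p = 1.95e-06), and was at 0.06 in Melan-A (95% interval -0.03 to 0.15). Mlxip, the MLX partner called MondoA, rose by 0.11 in Melan-A and 0.36 in B16F0 and fell by 0.12 in B16F10, all on the log2 scale (in order, adjusted p = 0.0161, 1.21e-08 and 0.0150). Mlxipl, the carbohydrate-response partner of MLX, had 57 and 52 counts in untreated and 75 and 98 in treated Melan-A (adjusted p = 0.0805), and at most 4 counts in any B16 library.

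Among genes that MLX complexes act on, Txnip, the glucose-induced brake on glucose uptake, rose in Melan-A from 209 and 212 CPM to 257 and 259 CPM (log2 fold change 0.29, adjusted p = 4.25e-11). It fell in B16F10 from 166 and 161 to 143 and 142 CPM (-0.19, adjusted p = 3.32e-07), and its B16F0 libraries overlapped. Its arrestin-family relative Arrdc4 was at 16.4 and 16.5 CPM in untreated and 19.0 and 18.2 CPM in treated Melan-A and at 33.7 and 33.4 then 18.9 and 20.5 CPM in B16F10, but had 0, 0, 0 and 1 counts in the B16F0 libraries. Mlx and Mlxip were well counted in B16F0, and their part in the level of Arrdc4 was not tested. Fasn, the fatty acid synthase, rose by 0.11 in Melan-A and fell by 0.64 in B16F0 and by 0.76 in B16F10, again as log2 values (in order, adjusted p = 4.48e-05, 2.26e-20 and 4.01e-22). Acaca, the acetyl-CoA carboxylase that feeds it, changed by 0.09, 0.16 and -0.11 in the 3 lines, and its mitochondrial counterpart Acacb by 0.39, -0.35 and 0.50, all called. Khk, the fructose kinase, rose in all 3 lines (0.33, 0.55 and 0.73) and Gpd1, a glycerol phosphate dehydrogenase, fell in all 3 (-1.41, -1.03 and -1.42). Pklr did not pass the filter. Of the 7 genes tested, 6 rose and 1 fell in Melan-A, 2 rose and 3 fell in B16F0, and 2 rose and 5 fell in B16F10, with medians of 0.18, 0.02 and -0.19 over the 7 (all genes tested: 0.00). Without Arrdc4, which had no count above the floor in B16F0, the median in B16F0 was -0.17, of the other sign. Of all genes 23.4%, 25.1% and 25.5% rose and 24.7%, 25.0% and 25.3% fell in the 3 lines.

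Of 17 coactivators and cofactors of MYC, 4 rose and 9 fell in Melan-A, 8 and 5 in B16F0 and 7 and 7 in B16F10, with median log2 fold changes of -0.07, 0.01 and 0.00. Over all genes tested, 23.4% rose and 24.7% fell in Melan-A, 25.1% and 25.0% in B16F0 and 25.5% and 25.3% in B16F10, with medians of 0.00. Trrap, the scaffold of the histone acetylases that MYC recruits, fell by 0.52, 0.51 and 0.98 on the log2 scale in Melan-A, B16F0 and B16F10. Hcfc1, a host cell factor that binds MYC, fell by 0.57, 0.14 and 0.55. Zbtb17, which encodes MIZ1, the factor through which MYC represses genes, rose by 0.42, 0.65 and 0.54. Of 16 tested SIN3 and HDAC corepressor genes, the machinery of the antagonists, 3 rose and 12 fell in Melan-A, 3 and 6 in B16F0 and 5 and 8 in B16F10 (medians -0.16, -0.04 and -0.06), beside the same shares of all genes. Hdac1, the deacetylase, changed by -0.45, -0.47 and -0.36 and Arid4b, a SIN3 subunit, by -0.49, -0.34 and -0.41. Ing2, the subunit that reads methylated histone H3, rose by 0.59, 0.27 and 0.28.

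Of 20 genes for MYC protein turnover, 5 rose and 11 fell in Melan-A, 7 and 9 in B16F0 and 7 and 8 in B16F10 (medians -0.16, 0.00 and 0.04). Of all genes tested, 48.2%, 50.1% and 50.8% were called in these lines, about evenly in each direction, so that 5 of 20 higher in Melan-A is near the 23.4% of all genes. Skp2, an F-box ligase subunit for MYC and p27, fell by 1.04, 0.71 and 1.23 on the log2 scale. Pim1, a kinase that stabilizes MYC, rose from 9.06 and 9.36 to 29.3 and 27.5 CPM in B16F10 (log2 fold change 1.62) and by 0.90 in Melan-A and 1.01 in B16F0. Usp22, a deubiquitinase, rose by 0.38, 1.18 and 0.78. A further list of 13 genes held regulators of Myc transcription together with Mycbp, a MYC-binding protein gene. Of these, 2 rose and 8 fell in Melan-A, 6 and 6 in B16F0 and 3 and 8 in B16F10 (medians -0.25, 0.21 and -0.09), to be read against the same shares. Pvt1, the noncoding gene next to Myc, went from 6.21 and 6.91 to 15.8 and 13.8 CPM in Melan-A, from 15.1 and 13.9 to 40.6 and 40.8 in B16F0 and from 15.3 and 15.1 to 47.7 and 47.6 in B16F10. It rose in all 3 lines (1.17, 1.48 and 1.65), while Myc rose in Melan-A and fell in B16F10. Fubp1, which binds a far upstream element of Myc, fell by 0.60, 0.41 and 0.96 on the log2 scale, and Mycbp by 0.49, 0.62 and 0.45.

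A list of 45 genes known as activated by MYC was read beside the change in Myc itself. Of these, 12 rose and 21 fell in Melan-A, 8 rose and 26 fell in B16F0, and 4 rose and 35 fell in B16F10, with median log2 fold changes of -0.05, -0.11 and -0.35 (all genes tested: 0.00 in each line). Among all genes 23.4% rose and 24.7% fell in Melan-A, 25.1% and 25.0% in B16F0 and 25.5% and 25.3% in B16F10, so the 12 of 45 higher in Melan-A is near the share of all genes. In all 3 lines 18 fell and 3 rose, where of all 18338 genes 2150 fell and 2072 rose. Cdc25a, the phosphatase that starts the G1/S step, went from 50.7 and 48.6 to 28.3 and 29.4 CPM in Melan-A, from 83.2 and 84.8 to 58.4 and 53.4 in B16F0 and from 71.5 and 70.2 to 22.5 and 23.9 in B16F10 (log2 fold changes -0.78, -0.58 and -1.61). Odc1, the polyamine synthesis enzyme, rose from 300 and 303 to 457 and 460 CPM in Melan-A, from 307 and 304 to 599 and 592 in B16F0 and from 334 and 320 to 703 and 708 in B16F10 (0.60, 0.96 and 1.11). Slc1a5, the glutamine transporter, rose by 0.96, 0.88 and 0.96, and its change did not pass the test among lines (adjusted p = 0.313). Before treatment, 30 of the 45 were higher and 10 lower in B16F0 than in Melan-A, 36 higher and 6 lower in B16F10 than in Melan-A, and 16 higher and 20 lower in B16F10 than in B16F0 (medians 0.30, 0.37 and -0.02, against -0.06, -0.10 and 0.00 for all genes). Of all genes, 35.3% were higher and 40.6% lower in the first of these comparisons, 33.4% and 40.8% in the second and 30.8% and 31.2% in the third. Most of the list was higher in the melanoma lines than in Melan-A. Between the B16 lines its median (-0.02) was near that of all genes (0.00). The part of Myc in these levels was not tested.

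Of 12 genes known as repressed by MYC, 8 rose and 2 fell in Melan-A, 6 rose and 1 fell in B16F0, and 5 rose and 0 fell in B16F10. Of all genes 23.4%, 25.1% and 25.5% rose and 24.7%, 25.0% and 25.3% fell in these lines. The medians were 0.39, 0.45 and 0.95 over the genes with a group above the floor, which were 12, 9 and 8 of the 12 (fitted over all 12: 0.39, 0.30 and 0.95). In all 3 lines 5 rose, Cdkn1b, Gadd45a, Gadd45g, Ndrg1 and Ndrg2, beside 2072 of all 18338 genes. Gadd45a, the DNA-damage and stress gene, went from 87.0 and 83.5 to 197 and 196 CPM in Melan-A, from 40.0 and 38.4 to 202 and 206 in B16F0 and from 42.7 and 42.7 to 301 and 310 in B16F10 (log2 fold changes 1.21, 2.38 and 2.84). Gadd45g, its relative, rose by 1.57, 1.84 and 2.32, and Cdkn1b, which encodes the cell cycle inhibitor p27, by 0.36, 0.99 and 0.91. Before treatment 2 of the 12 were higher and 10 lower in each melanoma line than in Melan-A, where 40.6% of all genes were lower in B16F0 and 40.8% in B16F10. The lists hold genes with other known inducers, and whether MYC acted on them was not measured. Ndrg1 and Ndrg2 are named as part of the count and not by the rule for named genes.

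**Figure D5:**
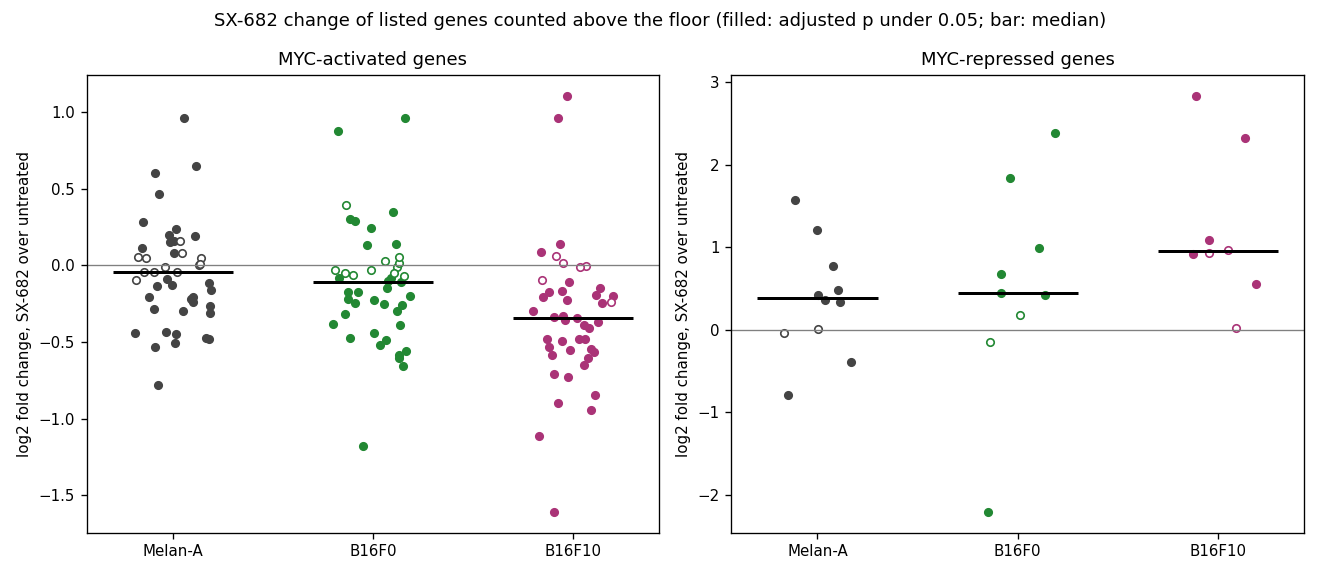
Log2 fold change of SX-682 over untreated, by line, for the 45 MYC-activated genes (left) and for the MYC-repressed genes with over 3 counts in at least 1 library of each group (right), with 1 point per gene, filled where the adjusted p was under 0.05, with a bar at the median. Tgfbi in Melan-A, at the floor untreated, counts in the median and is not drawn. The activated genes lie lowest in B16F10 (median -0.35) and nearest to 0 in Melan-A (-0.05), and the repressed genes have medians of 0.39, 0.45 and 0.95.

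Genes with a pattern over the 12 libraries like that of Myc were sought among 9353 genes with a mean log2 CPM of at least 3, by Pearson's r of log2 CPM. The closest were Hsdl1 (r = 0.965), Card6 (0.949), Tmem251 (0.937), Alg2 (0.923) and Dync1li1 (0.918). For Mxd4, the antagonist with the highest mean CPM, the closest were Trim35 (0.985), Ahnak (0.985), Smad6 (0.982), Vldlr (0.982) and Itgb5 (0.981). The 12 points fall in 6 groups of 2 and share line and treatment, so these values are a description of likeness.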

How the data were processed

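RNA-seq of 3 mouse cell lines, untreated or with SX-682, was used, with 2 libraries in each of 6 groups taken from the labels. The authors deposited read counts per gene without normalization for 34513 genes. The submitters' processing notes name cutadapt, STAR, DESeq2 and the build mm10, and the counting program and its strand setting are not given in the sources used here. Of these genes, 33821 had the same versioned identifier, coordinates and exonic length in GENCODE M21.

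From these counts, edgeR 4.0.16 (R 4.3.3) was fitted once to all 12 libraries with TMM scaling, its expression filter (18338 genes kept), a mean per group, no block and a prior count of 0.125. Quasi-likelihood F-tests were adjusted by Benjamini-Hochberg over all genes tested and called under 0.05, with 6 residual and 21.9 prior degrees of freedom. The fit was tested on simulated counts with known changes. Replicates of each group differed by more than sampling noise (chi-square per gene 2.86 to 5.29), and 0 libraries were identical. Library totals were 48876982 to 85322092.

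The members and lists were chosen with earlier results of these data known. All 10 members were named. For lists, the 3 tested genes with the largest mean log2 fold change were named among those called in 1 direction in all 3 lines, with treated libraries beyond untreated ones and a mean log2 CPM of at least 1. Genes tied to MLX were given gene by gene. Levels between genes were CPM divided by exonic kb. DESeq2 1.42.0, RLE and upper quartile scaling, no filter or at least 10 counts in every library, a prior count of 2, separate fits, removal of the 50 highest genes, a replicate block, longest transcripts and each library left out were the alternatives. Genes of the lists at or under 3 counts in both groups were given no fold of their own. Their fitted values enter the medians over all tested MLX and MYC-repressed genes, and the fitted range of Arrdc4. Tumor, protein and cytokine data were not analysed here.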

Additional observations from a re-analysis of the deposited data

Results flagged for a closer look

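The response to SX-682 differed among the 3 lines in edgeR's quasi-likelihood test of line by treatment for 8 of the 10 members, against 47.4% of all genes tested. The range of the log2 fold change over the lines was Myc 1.07, Mxi1 0.93, Mnt 0.85, Mlx 0.81, Mxd1 0.70, Max 0.61, Mxd3 0.28 and Mxd4 0.23. The difference in Mxd3 was lost when any 1 of 5 libraries was left out (adjusted p = 0.0536 to 0.118 in edgeR's quasi-likelihood test). For Myc and Mlx the fold change was positive in Melan-A and negative in both B16 lines, and for Mnt it was positive in Melan-A and negative in B16F10. For Mxd1 the line that stood apart was B16F0, where it was not called, and for Max it was Melan-A. Mxi1 was not called in B16F0 either, and its rise was smaller in B16F10 than in Melan-A.

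Of the 28 tested genes named from the lists, 22 differed among the lines in the same test. Except for Mga and the genes tied to MLX, they were named for large SX-682 changes in these same libraries. That choice shapes the count, so it is not to be read against the share of all genes. The range over the lines of the log2 fold change was Gadd45a 1.63, Cdc25a 1.02, Fasn 0.87, Acacb 0.86, Usp22 0.80, Gadd45g 0.75, Pim1 0.72, Cdkn1b 0.63, Mga 0.55, Fubp1 0.55 for the 10 largest and Skp2 0.52, Odc1 0.51, Txnip 0.48, Mlxip 0.48, Pvt1 0.47, Trrap 0.47, Hcfc1 0.43, Khk 0.40, Ing2 0.32, Acaca 0.28 and Zbtb17 0.24 for the others. Arrdc4, with a fitted range of 3.31, had at most 1 count in any B16F0 library, so its fitted change there has no size. With 47.4% of all genes passing this test, the passing of a gene is common in these data.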

How the results depend on the processing

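Of 1246 fold changes of members with SX-682 within a line or between untreated lines, recomputed under alternatives, 1212 kept their direction and side of the threshold, 29 lost the call, 5 gained it and 0 reversed. The calls of fold changes lost were those of Mxd4 and Mlx in Melan-A, Myc in B16F0, Mycn in B16F10, and untreated Mycn (B16F0 against Melan-A) and Mycl (B16F10 against B16F0). Mxd4 in B16F0 gained its call. The causes were not tested. With a library left out, members called were 5 to 6 in Melan-A, 3 to 5 in B16F0 and 8 to 9 in B16F10. In untreated lines they were 9 to 10, 8 and 6 to 7, and for the response among lines 7 to 8, with Mxd3 the member lost. The pairwise response differences were 6 to 7 for B16F0 minus Melan-A (Mxd4 lost), 6 to 7 for B16F10 minus Melan-A (Mxd3 lost) and 4 to 5 for B16F10 minus B16F0 (Mnt lost). A group left with 1 library was assumed to vary like the others. Mycn and Mycl were not tested where at least 10 counts in every library were required. Other settings gave 6 to 7, 4 to 5 and 8 to 9 with SX-682.

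With longest transcripts as lengths, the antagonist to MYC ratio was 2.83 untreated and 2.14 with SX-682 in Melan-A, 1.78 and 1.73 in B16F0, and 1.15 and 1.77 in B16F10. The order of the untreated lines and the direction with SX-682 were those of the exonic lengths.

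Same-numbered untreated and treated libraries did not deviate together (correlation across genes 0.0031, -0.0091 and -0.013 in Melan-A, B16F0 and B16F10), so the numbers were not taken as pairs. With the replicate block, 7, 4 and 9 members were called with SX-682 in Melan-A, B16F0 and B16F10, 8 differed among the lines, and the call of every member was that without the block. Depth limits Mycn and Mycl, with at most 157 counts in a library.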
